A study of Mus musculus with 12 samples.

Results

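The genes described here are 6 transcription factors known as regulators of definitive endoderm, Sox17, Foxa1, Foxa3, Gata4, Gata6 and Hhex, chosen by name and not by their values, out of 38911 gene symbols in the count files. They were followed in 12 libraries of polyA RNA from mouse gastruloids, which are aggregates of embryonic stem (ES) cells that form the germ layers and a body axis in culture. All libraries came from E14TG2a ES cells kept in 2i and LIF, a medium that holds the cells in a naive pluripotent state. Each gastruloid was seeded with 200 cells, every gastruloid received a pulse of the Wnt agonist CHIR on day 2, and RNA was collected on day 4. The treatments ran from day 3 to day 4 and gave 4 groups: 1X glucose at 21.25 mM, which served as the control, 0X glucose without any glucose, 3X glucose at 63.75 mM, and 2-DG, which was 5 mM 2-deoxyglucose added to medium with 21.25 mM glucose. 2-DG is a glucose analogue that blocks the first steps of glycolysis and also enters protein glycosylation in the place of mannose. Every group held 3 libraries, 1 from each of the ES cell passages 13, 15 and 16, and each library pooled the gastruloids of 1 treatment from 1 plate. All ES cells were of 1 line, so the replicates of a group differ in passage and not in genotype.

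Definitive endoderm leaves the primitive streak next to the mesoderm under high Nodal and Wnt signals and goes on to form the gut tube and its organs. Sox17 is an HMG-box factor that fixes the endoderm fate, Foxa factors are forkhead proteins that open closed chromatin at endoderm genes, Gata4 and Gata6 are zinc-finger factors that act beside them, and Hhex is a homeobox repressor of the anterior endoderm that later shapes liver and thyroid. None of the 6 genes is limited to definitive endoderm. Sox17 and Hhex are also made in forming blood vessels, and Gata4 and Gata6 also in the visceral endoderm outside the embryo proper and in heart and lateral plate mesoderm, so bulk RNA cannot assign their transcripts to a cell type. In bulk samples, fewer cells of a type and less RNA per cell also cannot be told apart.

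The libraries held 31902471 to 45956080 counts. Sox17, Foxa1, Gata4, Gata6 and Hhex passed the filter on low counts and were among the 16966 genes tested, whereas Foxa3 did not pass. Both the passage and 2-DG divided the libraries. In the F test over the 3 passages, with treatment as a term, 46.2% of all tested genes were called, and 41.3% were called between 2-DG and 1X glucose with the passage as a term. In the fit without the passage, 17.6% were called between 2-DG and 1X glucose, 0.0118% between 0X and 1X glucose, and 0% between 3X and 1X glucose (edgeR's quasi-likelihood test, Benjamini-Hochberg adjusted p below 0.05, which is what "called" means here). Between 3X and 1X glucose 178 genes had an unadjusted p below that value. The tissue label was checked on posterior mesoderm genes: T (Brachyury), which marks the primitive streak and tail bud, lay at 149.7 to 330.2 CPM (counts scaled to library size) in the 9 libraries without 2-DG and at 64.6 to 96.1 CPM with 2-DG, and Tbx6, of the presomitic mesoderm, at 92.8 to 266 CPM in all 12.

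Upstream sequence is shown for Foxa1 and Hhex, because both rose from passage 13 to passage 16 and both have an entry in the promoter table of RefSeq (GRCm38.p6), which matched 3 of the 6 genes. Each run holds the 250 bases before the gene's start in that table, on the gene's own strand, at chr12:57546112-57546361 (minus strand) for Foxa1 and chr19:37434591-37434840 (plus strand) for Hhex. The Foxa1 run lies inside the span given below for the whole gene. Capitals mark a match to the forkhead motif GTAAACA.
Foxa1: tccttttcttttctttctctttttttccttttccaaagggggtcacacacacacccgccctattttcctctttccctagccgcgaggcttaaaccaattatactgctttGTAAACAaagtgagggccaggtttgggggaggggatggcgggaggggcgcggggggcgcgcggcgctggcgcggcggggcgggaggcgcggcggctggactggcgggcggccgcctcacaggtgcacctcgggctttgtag
Hhex: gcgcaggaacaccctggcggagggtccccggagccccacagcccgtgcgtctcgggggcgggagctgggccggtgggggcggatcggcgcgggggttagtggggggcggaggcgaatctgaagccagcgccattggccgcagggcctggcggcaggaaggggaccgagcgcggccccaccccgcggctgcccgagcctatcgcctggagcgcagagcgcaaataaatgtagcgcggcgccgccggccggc
Foxa1 had 1 forkhead match, 141 to 135 bases before the start, and 3.17% of the 32851 promoters in the table held such a match on either strand. Neither run held a match to the other 4 motifs searched on both strands, which were AGATAA (bound by zinc-finger factors such as Gata4 and Gata6, 9.99% of promoters), ATTGTT (bound by factors such as Sox17, 9.42%), CTTTGA (bound by the Tcf and Lef factors of the Wnt pathway, 13.8%) and TATAAA (which places the start of transcription, 12.4%). The motifs do not overlap each other in these runs, and a match describes letters and not a bound site.

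All 6 genes lie on different chromosomes of the mouse genome (GRCm38.p6, the patch release of mm10, the build in the submitters' processing notes). Positions are from RefSeq, and strands and overlaps from the GENCODE annotation. Sox17 (NCBI gene 20671) spans chr1:4490928-4497426 on the minus strand, Foxa1 (15375) chr12:57540628-57548029 on the minus strand, Foxa3 (15377) chr7:19013283-19023539 on the minus strand, Gata4 (14463) chr14:63198914-63271712 on the minus strand, Gata6 (14465) chr18:11052510-11085636 on the plus strand and Hhex (15242) chr19:37434841-37440731 on the plus strand. Sox17 overlaps the opposite-strand transcript Gm37587, and Gata6 overlaps the opposite-strand transcript 1010001N08Rik. The library kit keeps the strand, but the strand setting of the counting is not given in the sources used here, so reads of these partners cannot be told apart from reads of Sox17 and Gata6.

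The 6 genes were expressed at low levels. The mean levels of the 5 tested genes lay between percentiles 26.4 and 34.3 of all tested genes. Per kilobase of transcript, the level scale on which genes can be compared with each other, Hhex was highest, with a mean of 2.50 CPM per kb and a range of 1.90 to 3.13 over the 12 libraries, above every library of every other member. Foxa1 followed at 0.865 (0.537 to 1.31), Gata6 at 0.707 (0.210 to 1.69), Sox17 at 0.639 (0.130 to 1.35) and Gata4 at 0.585 (0.421 to 0.768). The ranges of these 4 genes overlapped, so their order does not go beyond their spread. Foxa3 was lowest, at 0.0721 CPM per kb (0 to 0.121), below every library of every other member.

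All 5 tested members were called in the F test over passages 13, 15 and 16, with treatment as a term, against 46.2% of all tested genes. Sox17, Foxa1, Gata6 and Hhex rose with the later passages and Gata4 fell.

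Sox17 differed most. At passage 13 its level was 0.527 CPM in 1X glucose, 0.505 in 0X, 0.406 in 3X and 0.410 in 2-DG, at passage 15 it was 2.03, 2.63, 1.74 and 1.47 CPM in the same order, and at passage 16 it was 3.65, 4.01, 4.21 and 2.40 CPM. All 4 libraries of passage 13 lay below all 8 of the later passages, and the highest passage 15 library overlapped the lowest of passage 16. These levels rest on 14 to 24 counts per library at passage 13 and on 90 to 172 at passage 16. The log2 difference was 2.06 ± 0.16 (SE) between passage 15 and passage 13, a 4.18-fold rise, and 2.92 ± 0.16 between passage 16 and passage 13, a 7.59-fold rise (n = 4 libraries a passage, adjusted p = 9.81e-06 and 1.06e-06). Passage 16 was also above passage 15, by 0.86 ± 0.13 on the log2 scale (adjusted p = 0.00939, edgeR), and Sox17 was the 1 member called in that comparison, in which 4.2% of all genes were called. This last call was lost without the 1X library of passage 15 (log2 0.85, adjusted p = 0.0592) or without the 3X library of passage 15 (log2 0.76, adjusted p = 0.0527).

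Gata6 followed the same order outside 2-DG. Its levels were 0.681 CPM in 1X glucose, 1.10 in 0X, 0.841 in 3X and 1.08 in 2-DG at passage 13, then 2.50, 2.69, 2.41 and 1.66 CPM at passage 15, and 3.89, 5.45, 3.55 and 1.60 CPM at passage 16. Each treatment had its lowest library at passage 13, and the spread between treatments was widest at passage 16, where the 2-DG library stood apart below the other 3. Passage 15 exceeded passage 13 by 1.31 ± 0.26 on the log2 scale (2.48-fold) and passage 16 exceeded it by 1.90 ± 0.25 (3.73-fold), with adjusted p = 0.00250 and 0.000231 (edgeR). The step from passage 15 to 16 did not pass the test (log2 0.59 ± 0.23, adjusted p = 0.171). It passed without the 2-DG libraries (log2 0.74, adjusted p = 0.00962), without the passage 13 library of 2-DG (log2 0.58, adjusted p = 0.0379) and without the passage 16 library of 2-DG (log2 0.83, adjusted p = 0.0422).

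Gata4, the partner of Gata6, went the other way. It stood at 2.61 CPM in 1X glucose, 2.56 in 0X, 2.35 in 3X and 2.52 in 2-DG at passage 13, at 1.71, 1.76, 1.43 and 1.85 CPM at passage 15, and at 1.51, 2.00, 1.71 and 1.86 CPM at passage 16. All 4 libraries of passage 13 were above all 8 later ones, which overlapped each other. Gata4 fell by 0.57 on the log2 scale from passage 13 to 15 (SE 0.11, adjusted p = 0.00191) and by 0.51 from passage 13 to 16 (SE 0.11, adjusted p = 0.00355) to 0.672 and 0.703 times its passage 13 level.

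Foxa1 was measured at 1.71 CPM in 1X glucose, 1.99 in 0X, 1.83 in 3X and 2.31 in 2-DG at passage 13, at 2.74, 2.33, 2.99 and 4.20 CPM at passage 15, and at 3.09, 3.11, 3.23 and 3.60 CPM at passage 16. The passage 13 libraries were all below those of the later passages, by a narrow margin between 2.31 and 2.33 CPM. It rose by 0.63 ± 0.12 on the log2 scale from passage 13 to 15 and by 0.74 ± 0.12 from passage 13 to 16 (adjusted p = 0.00171 and 0.000625). Foxa3, a forkhead factor of the later gut and liver, had 0 counts in the 3X library of passage 13 and 3 to 8 counts in the other 11 libraries, at most 0.247 CPM, which is too few for a comparison at this depth.

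Hhex moved least. It was at 3.91 CPM in 1X glucose, 3.94 in 0X, 4.06 in 3X and 3.43 in 2-DG at passage 13, at 4.31, 3.97, 4.66 and 4.77 CPM at passage 15, and at 5.27, 5.05, 5.06 and 5.65 CPM at passage 16. Passages 13 and 16 did not overlap, and passage 15 overlapped passage 13. The rise from passage 13 to 16 was 0.45 ± 0.09 on the log2 scale (adjusted p = 0.00249), and the difference of 0.21 ± 0.09 between passages 15 and 13 did not pass the test (adjusted p = 0.0953).

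**Figure D1:**
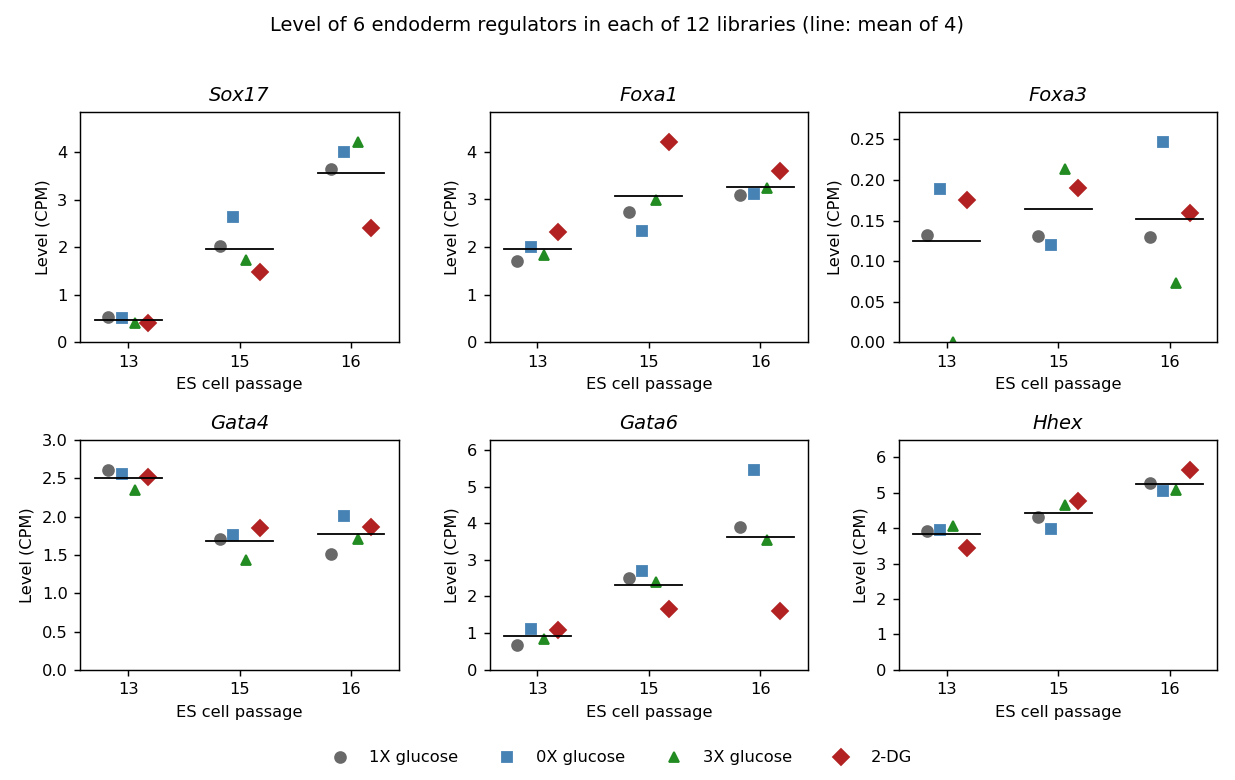
Level in CPM (vertical axis, starting at 0, a scale of its own for each gene) of the 6 genes in all 12 libraries, by ES cell passage (horizontal axis); each symbol is 1 library, its colour and shape give the treatment, and the line is the mean of the 4 libraries of a passage. Sox17 and Gata6 climb from passage 13 to 16, Gata4 drops after passage 13, and the 2-DG library of passage 16 lies below the other 3 for Sox17 and Gata6.

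The single steps between passages can be set against all genes. Sox17, Foxa1, Gata4 and Gata6 were called between passages 15 and 13, 4 of the 5 tested members, where 41.8% of all genes were called, and all 5 were called between passages 16 and 13, where 40.2% were. With so many genes called, 5 members are too few to set apart from the rest of the transcriptome. Each passage has 1 library of each treatment, so the passage number and anything else that differed between those cultures cannot be told apart.

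**Figure D2:**
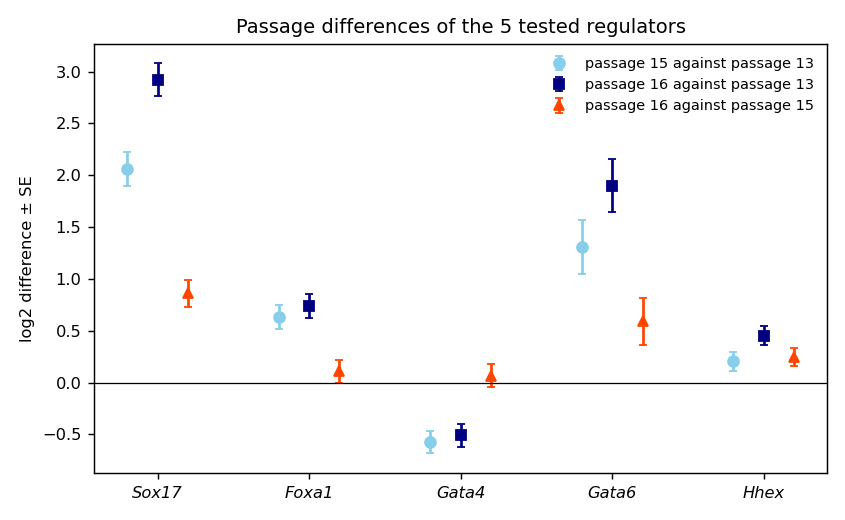
Log2 difference between passages (vertical axis, error bars are the SE from edgeR, n = 4 libraries a passage) for the 5 tested genes. Sox17 reaches 2.92 between passages 16 and 13, Gata4 lies below 0 in both comparisons with passage 13, and the comparison of passage 16 with 15 is near 0 for Foxa1 and Gata4.

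Markers of other cell types moved with the passages as well. Of all tested genes, 41.8% were called between passages 15 and 13 and 40.2% between passages 16 and 13. Of the 10 tested genes of cardiac and lateral plate mesoderm, 7 were called higher and 0 lower at passage 16 than at passage 13. Their median log2 difference was 0.65 against -0.014 for all genes. Their summed level was 31.9 to 57.7 CPM at passage 13, 63.4 to 91.7 at passage 15 and 62.8 to 87.4 at passage 16. Smarcd3 and Mesp1 made up most of that sum, as with 30.4 and 29.4 of 80.3 CPM in the 1X library of passage 15. Mesp1, of the earliest cardiac mesoderm but not of that alone, and Foxf1, of the lateral plate, rose 2.50-fold and 2.34-fold from passage 13 to 16. Of the 5 genes of that list that did not pass the filter, which include the heart genes Nkx2-5, Myl7 and Tnnt2, none had more than 14 counts in any library. Of the 14 tested endothelial and blood progenitor genes, 9 were called higher and 1 lower in the same comparison, with a median of 1.03. Kdr, the VEGF receptor of vessel precursors, rose 6.13-fold. The summed level of this list, most of it from Lmo2, did not separate the passages, at 7.82 to 85.4 CPM at passage 13 and 17.8 to 75.8 CPM at passage 16. The lowest value of each passage was that of its 2-DG library. The glucose libraries lay at 61.6 to 85.4 CPM at passage 13 and at 68.2 to 75.8 CPM at passage 16. Of the 13 tested visceral and primitive endoderm genes, 5 were called higher and 2 lower in that comparison, with a median of 0.42. Their summed level was 472 to 553 CPM at passage 13, 642 to 726 at passage 15 and 629 to 678 at passage 16. Lamb1 and Col4a1, basement membrane genes that many cell types share, made up much of that sum. Their means at passages 13, 15 and 16 were 237, 288 and 292 CPM for Lamb1 and 143, 193 and 191 CPM for Col4a1. Pdgfra, also on the list, had means of 60.6, 140 and 119 CPM. The defining visceral endoderm genes Afp and Ttr were at 0 counts in all 12 libraries. Among 10 posterior mesoderm, neural and pluripotency genes, 1 was called higher and 7 lower at passage 15 than at passage 13. Their median log2 difference was -0.62. At passage 16, 3 were called higher and 3 lower (median -0.20). Sox2, of neural and posterior progenitors, had means of 127 CPM at passage 13 (SD 20.8), 54.1 at passage 15 (SD 13.9) and 48.5 at passage 16 (SD 12.5, n = 4 libraries a passage). T was called lower at passage 15 than at passage 13 and was not called at passage 16. Of the 7 tested node, notochord and floor plate genes, a list that shares T, 1 was called higher and 2 lower at passage 15. At passage 16, 1 was called higher and 0 lower. The part of these cell types in the passage differences of Sox17, Gata4, Gata6, Foxa1 and Hhex was not tested.

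The rest of the definitive endoderm programme was uneven between passages. Of 23 tested genes in a list of 26, 11 were called higher and 3 lower at passage 16 than at 13. Their median log2 difference was 0.56, and 40.2% of all genes were called in that comparison. At passage 15, 5 were called higher and 7 lower than at 13, with a median of -0.0032, beside 41.8% of all genes called. Cer1, a secreted inhibitor of Nodal, BMP and Wnt, moved most among the named genes of the list. It is made by anterior endoderm but not by that tissue alone. Cer1 lay at 0.615, 5.77, 0.870 and 5.91 CPM in 1X, 0X, 3X and 2-DG at passage 13. In the same order it lay at 161, 191, 109.7 and 57.6 CPM at passage 15 and at 50.7, 61.0, 45.4 and 13.8 CPM at passage 16. All later libraries were above all libraries of passage 13, and Cer1, unlike Sox17 and Gata6, peaked at passage 15 (39.5-fold above passage 13, adjusted p = 3.45e-05, and 12.9-fold at passage 16, edgeR). The cell types behind the Cer1 levels were not tested. Lhx1, a LIM homeobox factor of mesendoderm and of intermediate mesoderm, rose 4.33-fold from passage 13 to 16, and Cdx2, the posterior factor of hindgut and tail bud, fell to 0.497 times its passage 13 level.

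Among relatives and cofactors of the members, 6 of 7 tested genes were called higher at passage 16 than at 13 and 0 lower. Their median log2 difference was 1.09, and 40.2% of all genes were called in that comparison. Foxa2, the Foxa factor of node, notochord and endoderm, was at 0.351, 0.347, 0.464 and 0.0878 CPM in 1X, 0X, 3X and 2-DG at passage 13, at 0.947, 1.16, 1.65 and 0.327 CPM at passage 15 and at 2.23, 2.34, 2.47 and 0.666 CPM at passage 16. It rose 6.17-fold from passage 13 to 16 (adjusted p = 2.74e-06), in each treatment. Zfpm1 and Zfpm2, which encode the FOG cofactors that bind GATA proteins, rose 2.07-fold and 1.92-fold (adjusted p = 1.43e-05 and 0.000158), and Tle3, a corepressor that Hhex and Foxa proteins can recruit, differed by 0.031 ± 0.081 on the log2 scale and was not called (adjusted p = 0.795).

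2-DG was compared with 1X glucose to ask whether the endoderm regulators respond to the sugar analogue. In the fit by treatment alone, 0 of the 5 tested members were called against 17.6% of all genes, and 0 reached an unadjusted p below 0.05 or were called by DESeq2. That fit counts differences between passages as spread between replicates: the 3 libraries of 1X glucose had a mean Sox17 level of 2.07 CPM with an SD of 1.56, and those of 2-DG a mean of 1.43 with an SD of 0.994. The labels give each library its passage, so the passages pair the libraries of different treatments. With the passage as a block, 2 of the 5 members were called, Sox17 lower and Foxa1 higher, against 41.3% of all genes, a share no smaller than theirs.

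Within each passage the 2-DG library had 0.778, 0.726 and 0.657 of the Sox17 level of its 1X partner at passages 13, 15 and 16. All 3 pairs went down, and the log2 difference was -0.51 ± 0.17 with the block, 29.9% lower (adjusted p = 0.0314), against -0.53 ± 0.94 without it (adjusted p = 0.757, edgeR). The blocked call of Sox17 was lost in DESeq2 (log2 -0.51, adjusted p = 0.199) and without the 1X library of passage 13 (adjusted p = 0.0790), passage 15 (0.0765) or passage 16 (0.0807) or the 2-DG library of passage 15 (0.0764) or passage 16 (0.190).

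Foxa1 in 2-DG was 1.35, 1.53 and 1.16 times the 1X level at passages 13, 15 and 16. All 3 pairs went up, and the log2 difference with the block was 0.43 ± 0.13, 34.4% higher (adjusted p = 0.0237), against 0.42 ± 0.30 without it (adjusted p = 0.384, edgeR). The blocked call of Foxa1 was lost in DESeq2 (log2 0.42, adjusted p = 0.146) and without the 1X library of passage 13 (adjusted p = 0.0847), passage 15 (0.0849) or passage 16 (0.0509) or the 2-DG library of passage 15 (0.141).

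Gata6 in 2-DG was 1.59, 0.665 and 0.411 times the 1X level at passages 13, 15 and 16, so that 1 pair went up and 2 went down. It was not called, with a log2 difference of -0.50 ± 0.29 with the block (95% interval -1.14 to 0.14, adjusted p = 0.195) and of -0.70 ± 0.70 without it (adjusted p = 0.551). Without the passage 13 library of 2-DG the blocked difference was -0.88 and was called (adjusted p = 0.00721, edgeR).

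Gata4 and Hhex were not called in either fit. Gata4 in 2-DG was 0.964, 1.08 and 1.23 times the 1X level at passages 13, 15 and 16, and its log2 difference was 0.093 ± 0.26 without the block (95% interval -0.48 to 0.67, adjusted p = 0.852). Hhex was 0.876, 1.11 and 1.07 times the 1X level, with a log2 difference of 0.026 ± 0.10 with the block (95% interval -0.20 to 0.26, adjusted p = 0.865).

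Foxa3 stayed at 6 to 7 counts in the 3 libraries of 2-DG and at 5 to 6 in those of 1X glucose. A difference was not detectable at this depth.

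**Figure D3:**
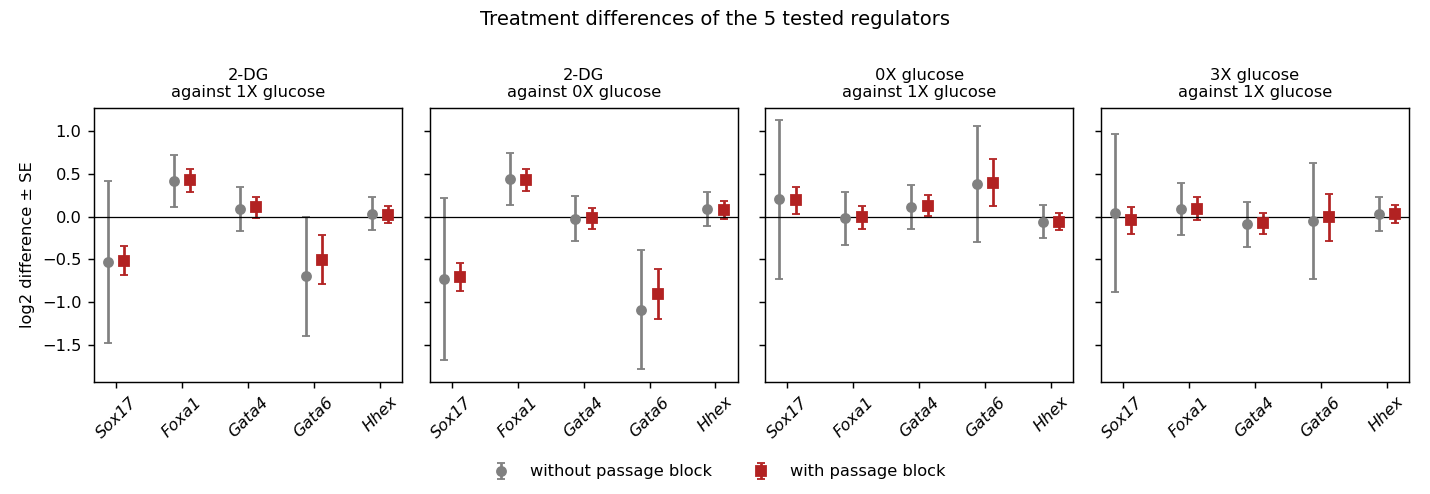
Log2 difference (vertical axis, error bars are the SE from edgeR, n = 3 libraries a group) of the 5 tested genes in the 4 comparisons of treatments, without the passage block (grey circles) and with it (red squares). The block shortens the bars of Sox17 and Gata6 most, and in the comparisons of 0X and 3X with 1X glucose the red squares lie between -0.077 and 0.40.

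2-DG was also compared with 0X glucose, which sets the analogue beside the absence of the sugar itself. Without the block 0 of 5 members were called (0 at an unadjusted p below 0.05, 0 in DESeq2) against 18.9% of all genes. With the block 3 of 5 were called against 43.1%: Sox17 was 38.7% lower in 2-DG (log2 -0.71 ± 0.17, adjusted p = 0.00679), Gata6 46.6% lower (log2 -0.90 ± 0.29, adjusted p = 0.0281) and Foxa1 34.8% higher (log2 0.43 ± 0.13, adjusted p = 0.0245, edgeR). This comparison shares its 2-DG libraries with that against 1X glucose and is no independent repeat of it. DESeq2 with the same block called 0 of the 3, with adjusted p = 0.0639 for Sox17, 0.0524 for Gata6 and 0.147 for Foxa1.

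The 3 blocked calls against 0X glucose also rested on single libraries. Sox17 was lost without the passage 16 library of 2-DG (log2 -0.56, adjusted p = 0.0586). Foxa1 was lost without the passage 15 library of 0X (log2 0.28, adjusted p = 0.136) or of 2-DG (log2 0.30, adjusted p = 0.126). Gata6 was lost without the passage 16 library of 0X (log2 -0.67, adjusted p = 0.147) or the 2-DG library of passage 15 (log2 -0.92, adjusted p = 0.0782) or passage 16 (log2 -0.45, adjusted p = 0.164). Gata4 and Hhex were not called, at -0.018 and 0.082 on the log2 scale with the block (adjusted p = 0.931 and 0.570, edgeR).

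Withdrawal or excess of glucose moved none of the 5 tested members past the threshold. In 0X against 1X glucose 0 of 5 were called in either fit (0 at an unadjusted p below 0.05 in either fit, 0 in DESeq2), against 0.0118% of all genes without the block and 0.0177% with it. The largest blocked difference was that of Gata6, which was 1.62, 1.08 and 1.40 times the 1X level at passages 13, 15 and 16 (log2 0.40 ± 0.27, 95% interval -0.20 to 1.00, adjusted p = 0.666). Sox17 had a blocked log2 difference of 0.19 ± 0.16 (95% interval -0.17 to 0.55), Foxa1 of -0.0043 ± 0.14 (-0.30 to 0.30) and Hhex of -0.055 ± 0.10 (-0.29 to 0.18), and Gata4 of 0.11 ± 0.26 without the block (-0.46 to 0.69). Among the blocked intervals, those of Foxa1 and Hhex reached no further than -0.30 and 0.30, and those of Sox17 and Gata6 were wider. The interval of Gata4 comes from the fit without the block, so its width is not set beside theirs.

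In 3X against 1X glucose 0 of 5 members were called in either fit (0 at an unadjusted p below 0.05 in either fit, 0 in DESeq2), against 0% of all genes without the block and 0% with it, where 876 genes had an unadjusted p below 0.05. The blocked log2 differences were -0.043 ± 0.16 for Sox17 (95% interval -0.40 to 0.31), 0.094 ± 0.13 for Foxa1 (-0.20 to 0.39), -0.077 ± 0.13 for Gata4 (-0.36 to 0.20) and -0.0077 ± 0.28 for Gata6 (-0.62 to 0.61). That of Hhex was 0.031 ± 0.20 without the block (-0.40 to 0.46). Levels of Foxa3 were 4 to 8 counts in 0X and 0 to 7 counts in 3X glucose.

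Whether the 2-DG difference itself changed with the passage was examined by setting each 2-DG library against the 3 glucose libraries of its passage, none of which received 2-DG. Each passage has 1 library of 2-DG, so the spread in this fit came from the glucose libraries alone. The 2-DG library was assumed to vary like them, so for a single passage only the log2 difference and its SE are given. The interaction of 2-DG and passage was called for 0.36% of all genes and for 0 of the 5 members (edgeR). Gata6 had an unadjusted p of 0.00728 in that F test and an adjusted p of 0.280, and so failed the correction. Its log2 difference was 0.33 ± 0.33 at passage 13, -0.61 ± 0.29 at passage 15 and -1.42 ± 0.29 at passage 16, where 2-DG had 0.374 times the level of the glucose libraries. In CPM, the 2-DG libraries of Gata6 stayed between 1.08 and 1.66 while the glucose libraries went from 0.681 to 1.10 at passage 13 up to 3.55 to 5.45 at passage 16.

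Sox17 gave -0.23 ± 0.35, -0.53 ± 0.25 and -0.72 ± 0.23 at passages 13, 15 and 16 (adjusted p of the interaction 0.913). Foxa1 gave 0.33 ± 0.18, 0.64 ± 0.16 and 0.19 ± 0.17 (adjusted p of the interaction 0.775, edgeR). In these genes all 3 passages had the same sign.

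**Figure D4:**
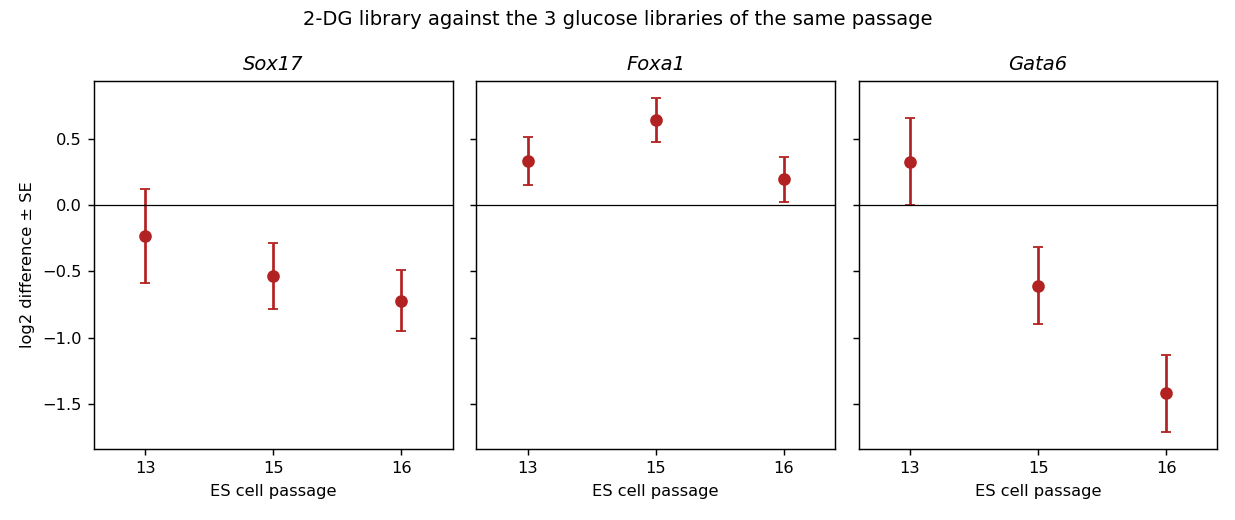
Log2 difference between the 2-DG library and the 3 glucose libraries of the same passage (vertical axis, error bars are the SE from edgeR, from the spread between glucose libraries) at passages 13, 15 and 16 for Sox17, Foxa1 and Gata6. Gata6 goes from 0.33 at passage 13 to -1.42 at passage 16, and its interaction with passage had an adjusted p of 0.280.

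Without the block 2 of the 14 tested endothelial and blood progenitor genes were called lower and 0 higher in 2-DG than in 1X glucose. The share of all genes called was 17.6%. With the block 7 of these 14 genes were called lower and 0 higher, against 41.3% of all genes. Their summed level, most of it from Lmo2, was 7.82 to 17.8 CPM in 2-DG, 57.5 to 69.1 in 1X, 61.2 to 85.4 in 0X and 59.9 to 69.1 in 3X glucose, and their median log2 difference from 1X glucose was -1.57 without the block against 0.0023 for all genes. Lmo2, a blood and endothelial cofactor, was 4.16, 7.87 and 13.3 CPM in 2-DG and 42.3 to 79.8 CPM in the 9 other libraries, without overlap (log2 -2.62 ± 0.36, adjusted p = 0.00114), and Etv2, which starts the vessel programme, fell by 1.52 on the log2 scale (SE 0.40, adjusted p = 0.0254). Kdr was 0.351, 0.681 and 0.453 CPM in 2-DG at passages 13, 15 and 16 and 0.768, 4.31 and 6.14 CPM in 1X glucose, a difference of -2.90 ± 0.95 that was called with the block alone (adjusted p = 0.0595 without it and 0.000131 with it, edgeR). Cardiac and lateral plate genes had a summed level of 57.7 to 91.7 CPM in 2-DG and 31.9 to 80.3 CPM in 1X glucose. Most of it came from Smarcd3 and Mesp1. Among the 10 tested genes of that list, 0 were called without the block (1 at an unadjusted p below 0.05, edgeR). With the block 1 was called higher and 1 lower. Visceral and primitive endoderm genes had 1 of 13 called higher and 0 lower without the block (3 higher and 2 lower with it). The 1 called without the block was Sparc, a matrix protein of parietal endoderm and mesenchyme (2.05-fold, adjusted p = 0.00199, edgeR). The part of these cell types in the 2-DG differences of Sox17, Gata6 and Foxa1 was not tested.

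Other genes of the endoderm programme changed in both directions with 2-DG. Of 23 tested genes, 3 were called higher and 4 lower without the block, against 17.6% of all genes (median log2 difference -0.021). With the block 7 were called higher and 8 lower, against 41.3% of all genes. Mixl1, a homeobox factor of the mesendoderm that precedes endoderm, was 0.293, 0.272 and 0.586 CPM in 2-DG and 3.63 to 7.49 CPM in the other 9 libraries (log2 -3.89 ± 0.42, adjusted p = 0.000321). Cxcr4, the chemokine receptor used to sort definitive endoderm and also present on mesoderm, was 20.6 to 30.1 CPM in 2-DG and 46.3 to 62.2 CPM in the others (log2 -0.88 ± 0.13, adjusted p = 0.00193). Neither gene overlapped between 2-DG and the other libraries.

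Cdh1 and Krt18 were among the genes of the list that rose. Cdh1 (E-cadherin) was 66.9 to 88.3 CPM in 2-DG and 20.9 to 60.1 in the others (1.89-fold above 1X, adjusted p = 0.0250), and Krt18, a keratin of simple epithelia, rose 1.82-fold (adjusted p = 0.0244, edgeR). Cer1 and Lhx1 were not called (log2 -1.45 ± 1.64 and 0.13 ± 0.75 without the block).

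Foxa2 differed from Foxa1 under 2-DG. With the block it had a log2 difference of -1.69 ± 0.20 from 1X glucose (adjusted p = 9.86e-05), and without it -1.68 ± 0.92 (adjusted p = 0.240, edgeR), and in each passage its 2-DG library was below all 3 glucose libraries, at 3, 12 and 25 counts. Foxa1 was above all 3 glucose libraries in each passage. The difference between these genes was not tested. Of 7 relatives and cofactors tested, 0 were called without the block (1 at an unadjusted p below 0.05, edgeR), against 17.6% of all genes. With the block 3 were called lower, against 41.3% of all genes. They were Foxa2, Zfpm1 (log2 -0.78 ± 0.10, adjusted p = 0.000219) and Tle3 (log2 -0.32 ± 0.094, adjusted p = 0.0199). In the list of node, notochord and floor plate genes, which shares Foxa2, 1 of 7 was called higher and 3 lower without the block. With the block 1 was called higher and 4 lower. In the fit without the block, T was called lower and the neural factor Sox1 higher among the 10 posterior mesoderm, neural and pluripotency genes. Sox1 rose 3.57-fold (adjusted p = 0.0185, edgeR). With the block 4 of the 10 were called higher and 4 lower.

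With 0X and with 3X glucose, 0 genes of any of these 7 lists were called against 1X glucose in either fit of edgeR. At an unadjusted p below 0.05, each list held 0 to 2 such genes without the block and 0 to 6 with it. In 0X with the block these were 6 of 23 genes of the endoderm programme. They were 4 of the 10 posterior mesoderm, neural and pluripotency genes, and the other lists held 0 to 2. Of all 16966 tested genes, 1591 had such a p in 0X with the block and 876 in 3X with the block (edgeR).

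How StringTie shared the reads between RefSeq transcripts of a gene varied from library to library, which is why counts were added up per gene. Foxa1 had all of its counts on NM_008259.4 in 9 libraries and all of them on XM_006515483.1 in the other 3, namely the passage 15 library of 0X, the passage 13 library of 3X and the passage 16 library of 2-DG. Sox17 had 70.4% of its counts on XM_030252405.1 and 23.6% on NM_011441.5, but in the passage 16 library of 0X glucose the first held 8 counts and the second 87. Gata4 moved between 3 transcripts, with 41.7% on XM_011244957.3, 38.8% on NM_001310610.1 and 19.5% on NM_008092.4, and each of these had 0 counts in 5 libraries. Gata6 had 96.3% of its counts on NM_010258.3, with the remaining 38 in the passage 16 library of 0X glucose, and Foxa3 and Hhex have 1 transcript each. Switches of this kind did not follow the treatment or the passage in Foxa1, where each of the 3 libraries has another treatment and another passage.

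**Figure D5:**
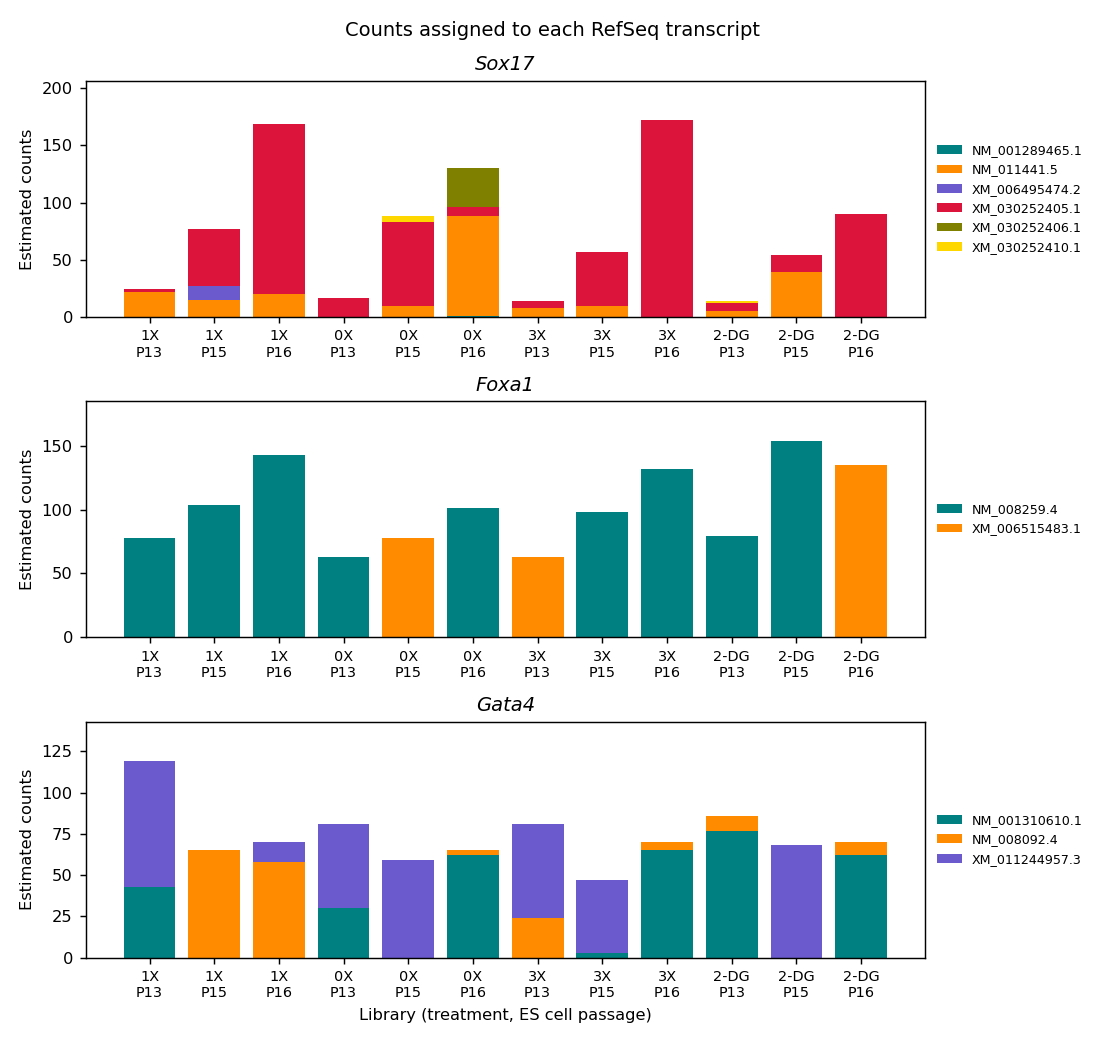
Estimated counts (vertical axis, starting at 0) that the deposited files give to each RefSeq transcript of Sox17, Foxa1 and Gata4, stacked by colour for the 12 libraries (1X, 0X, 3X glucose and 2-DG, P for ES cell passage). The colour changes from bar to bar within treatments and within passages, as in the 3 libraries in which Foxa1 is counted on XM_006515483.1 alone.

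Across the 12 libraries the levels of Sox17 and Gata6 ran together most closely of all pairs of members (Pearson r = 0.924 of log2 CPM), and Gata4 had negative r with all 4 others, from -0.806 with Sox17 to -0.659 with Hhex. The libraries share 3 passages and 4 treatments, so these r describe the passage pattern and are no independent evidence. The 3 genes whose pattern was most like that of Sox17 were Zfp746 (r = 0.983), Phc2 (0.978) and Cdcp2 (0.977). Those most like Foxa1 were Eps15l1 (0.971), Bcl9l (0.970) and Hoxb5 (0.969), those most like Gata6 were 1810058I24Rik (0.962), Cotl1 (0.961) and again Phc2 (0.955), and those most like Hhex were Crispld1 (0.957), Gm34079 (0.956) and Xlr4a (0.955). Gata4 was followed by Ndrg2 (0.950), 1700001L05Rik (0.938) and Pycr1 (0.932), all highest at passage 13, with Pycr1 at a mean of 77.3 CPM at passage 13, 45.6 at passage 15 and 45.2 at passage 16. None of these genes is a member or a list gene.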

How the data were processed

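The authors deposited 1 file per library with estimated counts of 120312 RefSeq transcripts (whole numbers), made per the labels and the study's methods with Trim Galore, HISAT2, SAMtools, Picard duplicate removal and StringTie on Galaxy, on mm10 per the submitters' processing notes; versions, annotation and strand setting are not given in the sources used here. Removal of duplicates lowers counts of abundant transcripts most. The authors' 3 tables of log2 fold changes and p-values from DESeq2 were not used. Transcript counts were added up per gene symbol (26382 genes with a count). CPM were computed with TMM-scaled library sizes. The test was edgeR 4.0.16 (R 4.3.3; filterByExpr, TMM, glmQLFTest, two-sided, Benjamini-Hochberg over 16966 genes, all 12 libraries), checked on simulated data. The changed genes of that simulation all had higher mean counts than Sox17, Gata4 and Gata6. Treatment tests with the passage block were not simulated. DESeq2 1.42.0 was an alternative for the treatment tests. Fits by treatment had no covariate. A further fit had the passage as a block, since labels give libraries of different treatments the same passage numbers: deviations from group means correlated at 0.0963 to 0.623 for the 18 pairs with the same passage, and at -0.44 to 0.191 for the other 36. Passage tests had treatment as a term. Any pair of libraries shared at most 9.67% of its values (transcripts averaging 10 counts or more), so no library was taken for a copy. The study's methods call the 3 libraries of a treatment biological replicates and describe treatments applied to gastruloids of a shared plate, without tying plates to libraries, so p-values measure the spread between these libraries. Intervals are 95% from the fit. Named genes are all members, up to 4 genes a list by level and up to 4 by adjusted p in 2-DG against 1X glucose, and 3 genes per member by Pearson r of log2 CPM (prior count 2); Foxa2, Zfpm1 and Zfpm2 also carry passage statements. A gene that the rule names is not reported here. Transcript lengths per kb are those of GENCODE M21 transcripts matched to RefSeq. Members and lists were chosen with earlier results of these data known.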

Additional observations from a re-analysis of the deposited data

How the results depend on the processing

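Alternatives were no filter on low counts, median-of-ratios factors, DESeq2, a fit of the compared groups alone, the most abundant transcript of each gene alone, the passage block, leaving out each library and, for passages, leaving out 2-DG; the block in DESeq2 and the block with a library left out were chosen after seeing the data. The passage block raised the members called to 2 in 2-DG against 1X glucose and to 3 in 2-DG against 0X glucose, and changed no other call of a member. DESeq2 with the block called 0 in both comparisons, and leaving out 1 library gave 0 to 3 and 1 to 3 members. The block turned Sox17 to -0.043 in 3X glucose. All 5 members stayed called between passages without the filter, with median-of-ratios factors, without the 2-DG libraries and without each single library. The other alternatives, among them DESeq2 and the most abundant transcript alone, were not run for the passages.

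Directions turned only for members not called in the fit that was varied. With the most abundant transcript alone, the log2 difference from 1X glucose was -0.213 for Foxa1 and -0.0604 for Gata4 in 2-DG, -0.629 for Sox17 in 0X, and -0.28 for Foxa1 and 0.614 for Gata4 in 3X, and Sox17 in 2-DG against 0X was 0.0297; the apportioning of reads between transcripts changed from library to library, as the transcript counts show. DESeq2 with the block gave Gata6 0.003 in 3X. Without a block, leaving out 1 library moved 2-DG against 1X between -1.12 and 0.181 for Sox17, -0.0696 and 0.367 for Gata4, and -0.132 and 0.209 for Hhex. In 0X against 1X the ranges were -0.399 to 0.911 for Sox17, -0.236 to 0.156 for Foxa1, -0.0558 to 0.387 for Gata4, -0.313 to 0.965 for Gata6 and -0.188 to 0.0697 for Hhex. In 3X against 1X they were -0.955 to 0.756 for Sox17, -0.117 to 0.305 for Foxa1, -0.311 to 0.188 for Gata4, -0.541 to 0.529 for Gata6 and -0.0601 to 0.161 for Hhex. In 2-DG against 0X they were -0.178 to 0.144 for Gata4 and -0.0679 to 0.271 for Hhex. With the block, the ranges that crossed 0 were -8.89e-05 to 0.192 for Gata4 and -0.036 to 0.134 for Hhex in 2-DG against 1X, -0.107 to 0.138 for Foxa1 and -0.124 to 0.000795 for Hhex in 0X, -0.316 to 0.0858 for Sox17, -0.191 to 0.00423 for Gata4 and -0.183 to 0.144 for Gata6 in 3X, and -0.0627 to 0.0424 for Gata4 in 2-DG against 0X. These libraries carry unequal passages, so leaving out 1 unbalances a fit without the block; other causes were not tested. Foxa3, at 0 to 8 counts a library, could not be compared, and the values of Sox17 at passage 13 rest on 14 to 24 counts a library.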
